A study of Rattus norvegicus with 12 samples.

Results

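The kinases of the mitogen-activated protein (MAP) kinase cascade were examined in adult rat ventricular myocytes (ARVMs) that overexpressed the nuclear receptor NR4A2. Members were the genes whose symbols begin with Map2k, Map3k, Map4k or Mapk followed by a digit, which gave 44 of the 17301 gene names listed, on 51 of 18752 transcripts. Described here are 38 kinases on 45 transcripts, made up of 5 MAP4K, 14 MAP3K, 7 MAP2K and 12 MAPK genes, and 5 genes that match by name only. The cascade is a relay in which a MAP4K, often downstream of a small GTPase or a cell surface receptor, activates a MAP3K, the MAP3K phosphorylates a MAP2K, and the MAP2K phosphorylates a MAPK. The MAPKs then phosphorylate transcription factors and further kinases. In cardiac myocytes the ERK branch is known for its part in growth responses, and the p38 and JNK branches respond to stress and inflammatory stimuli.

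The ARVMs came from hearts of male Sprague Dawley rats, whose age the sources used here do not give, and were isolated by perfusion with collagenase and cultured without serum in the presence of the contraction inhibitor butanedione monoxime. They were transduced at a multiplicity of infection of 50 with an adenovirus carrying green fluorescent protein (Ad-GFP) or the human NR4A2 coding sequence under a cytomegalovirus promoter (Ad-h-NR4A2), and RNA was collected 48 h later, with 6 samples in each group and no agonist added. Levels are given as FPKM, fragments per kilobase of transcript adjusted for the sequencing depth of each sample, and the depth recovered from the smallest steps of these values was 18800000 to 28000000 fragments in Ad-GFP samples and 21500000 to 27300000 in Ad-h-NR4A2 samples. Each group has samples numbered 24 to 29, and the samples that share a number are called a pair here. Positions are those of the rat build Rn5.

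The labels were checked on Nr4a2 (NM_019328, chr3:48183783-48189254). Its level was 0.626 to 1.40 FPKM (median 0.787) in Ad-GFP samples and 445 to 592 FPKM (median 533) in Ad-h-NR4A2 samples. The groups were thus far apart, with a log2 fold change of 9.10 (SE 0.17, limma adjusted p = 6.59e-13). Fragments of the human transgene that match the rat sequence are included in this level and cannot be told apart from those of the rat gene.

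At the level of mRNA, members of the cascade moved in both directions. Map3k8 rose to 2.89 times its Ad-GFP level and Map2k4 to 1.51 times, and Map3k1 fell to 0.558 times. Of the 6 MAPKs tested none rose, and Mapk3, Mapk14 and Mapk6 fell to between 0.785 and 0.870 times their Ad-GFP levels. Of the 38 kinases, 31 were above 0 in all samples and were tested, 26 had a mean of at least 1 FPKM, and the other 7 were listed near 0. Among these 7, Map2k3 and Mapk7 are listed at 2 loci each, which makes their levels uncertain. With limma on log2(FPKM + 0.1) and Benjamini-Hochberg adjustment over 10950 genes, 13 of the 31 kinases passed an adjusted p of 0.05, which is 41.9%, against 40.9% of all genes tested. Of these, 5 were higher and 8 were lower, against 19.3% of all genes higher and 21.7% lower. Differential expression, which also asks for a ratio of group means of at least 1.5 in either direction, was met by 3 kinases or 9.68%, against 15.2% of all genes (7.94% higher and 7.24% lower). The groups did not overlap in 9 kinases or 29%, against 21.5% of all genes. The shares that passed are near those of all genes and are not a result about the cascade. The median log2 fold change was -0.09 over the 31 kinases and -0.02 over all genes. Fold changes on this scale understate the change of genes with a low FPKM. In cultures of this kind, fewer cells of a type and less RNA per cell cannot be told apart.

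**Figure D1:**
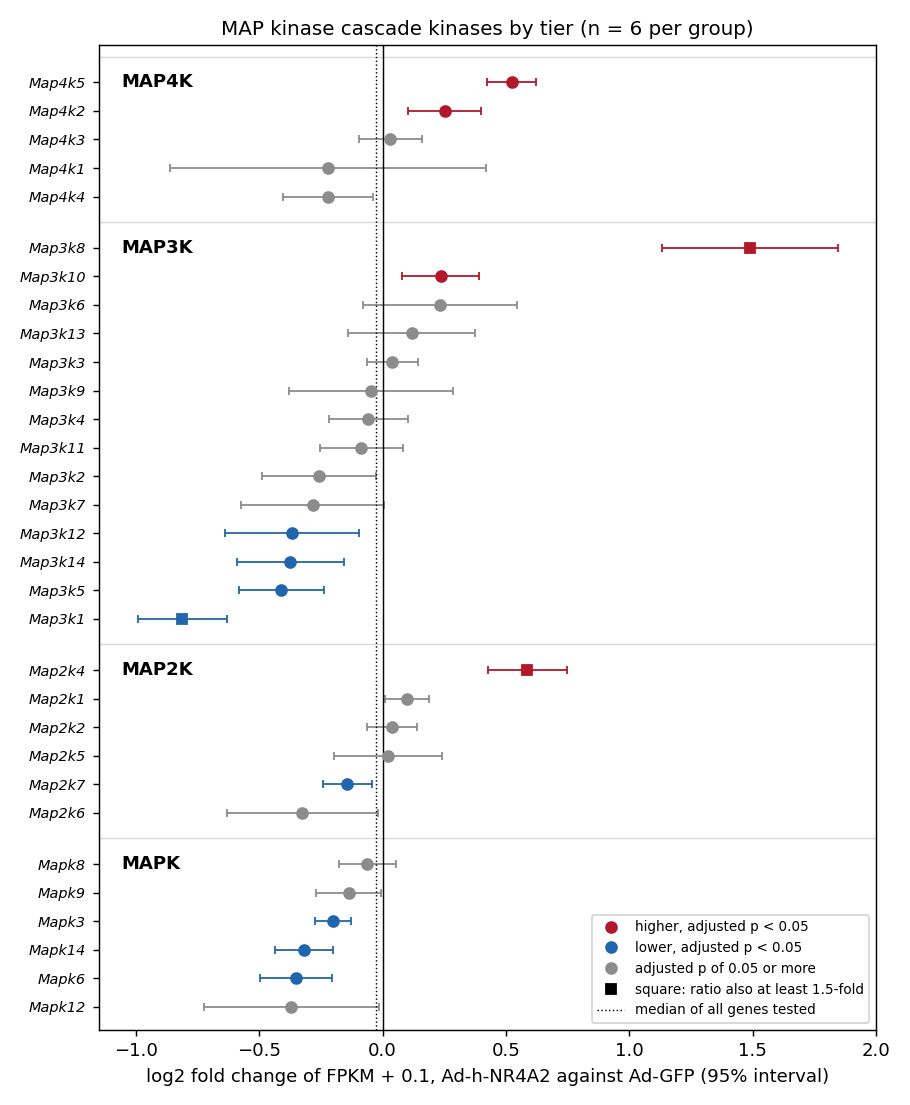
Log2 fold change of FPKM + 0.1 (Ad-h-NR4A2 over Ad-GFP, x axis) of the 31 tested kinases, grouped by tier, with bars for the 95% confidence interval of the limma fit (n = 6 per group). Red marks are higher and blue marks lower at an adjusted p of 0.05, grey marks did not pass, squares are differentially expressed, and the dotted line is the median of all genes; no mark of the MAPK tier is red, and the squares are Map3k8, Map3k1 and Map2k4.

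In the MAP4K tier, whose kinases belong to the STE20 family and feed chiefly into the JNK branch, 2 of 5 genes passed, both of them higher, and none was differentially expressed. The share of 40% that passed is at the 40.9% of all genes. Map4k5 (NM_001192016, chr6:101586278-101678374) was at 13.1 to 14.4 FPKM (median 13.7) in Ad-GFP samples and at 18.9 to 21.3 FPKM (median 19.6) in Ad-h-NR4A2 samples. All Ad-h-NR4A2 samples were above all Ad-GFP samples. Its mean rose from 13.7 ± 0.476 to 19.8 ± 0.880 FPKM (SD, n = 6), a log2 fold change of 0.52 (95% confidence interval 0.42 to 0.62, limma adjusted p = 1.09e-06; exact permutation p = 0.00216, the smallest that 924 divisions of the samples can give). With a ratio of 1.44 it stayed under the 1.5-fold limit. Map4k2 rose less, from 4.25 to 5.08 FPKM (log2 fold change 0.25, adjusted p = 0.00995).

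Map4k4 (NM_001106904, chr9:46343468-46467917), a kinase upstream of JNK, was the most abundant of the tier, with 56.2% of its summed FPKM. It was at 35.4 to 46.9 FPKM (median 39.5) with Ad-GFP and at 28.7 to 41.7 FPKM (median 34.2) with Ad-h-NR4A2. The groups overlapped, yet the Ad-h-NR4A2 sample was the lower one in 6 of 6 pairs. The log2 fold change was -0.22 (95% confidence interval -0.41 to -0.04), with an adjusted p of 0.0504, which just missed the threshold, and an exact permutation p of 0.0368. With pairs entered as a replicate block the adjusted p was 0.000587, and over the alternatives it ranged from 0.000587 to 0.0667. With single samples left out it ran from 0.00966 to 0.11. It was 0.0341 without Ad-GFP sample 27 and 0.00966 without Ad-h-NR4A2 sample 28. Map4k4 thus lay at the threshold, and did not pass under 5 of 11 alternatives. Map4k3 had a log2 fold change of 0.03 and an adjusted p of 0.704, and Map4k1, the form of blood cells, was near 0 at 0.157 and 0.118 FPKM on average. The order of the Map4k1 means rested on Ad-GFP sample 28, without which their ratio went from 0.754 to 1.10.

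Of the kinases tested, the one with the largest change on the log2(FPKM + 0.1) scale was a MAP3K. Map3k8 (NM_053847, chr17:54146364-54166886) encodes TPL2 or COT, which phosphorylates the MAP2Ks of the ERK branch in inflammatory signalling and is held in check by the NF-kappaB precursor p105. Its level was 2.02 to 3.61 FPKM (median 3.04, from 114 to 259 fragments) in Ad-GFP samples and 5.51 to 11.6 FPKM (median 8.79, from 304 to 681 fragments) in Ad-h-NR4A2 samples. The lowest Ad-h-NR4A2 sample was thus above the highest Ad-GFP sample. The mean rose from 2.98 ± 0.530 to 8.63 ± 1.97 FPKM (SD, n = 6), a log2 fold change of 1.49 (SE 0.17, 95% confidence interval 1.13 to 1.85, limma adjusted p = 9.58e-06; exact permutation p = 0.00216). By size of rise it had rank 228 among the 10950 genes tested. Fragment numbers cover counting error only and are given for genes with a single listed transcript.

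Map3k1 (NM_053887, chr2:62375910-62439602) went the other way. It encodes MEKK1, a MAP3K with a ubiquitin ligase domain that acts mainly on the JNK branch. Ad-GFP samples had 3.06 to 3.46 FPKM (median 3.22, from 325 to 445 fragments), and Ad-h-NR4A2 samples had 1.60 to 2.01 FPKM (median 1.80, from 188 to 259 fragments). The groups did not overlap, and each was tight. The mean fell from 3.24 ± 0.169 to 1.81 ± 0.180 FPKM (SD, n = 6), a log2 fold change of -0.81 (SE 0.08, 95% confidence interval -0.99 to -0.63, limma adjusted p = 4.97e-06; exact permutation p = 0.00216). In FPKM, which is per length, Map3k8 and Map3k1 thus had similar mean levels in Ad-GFP samples, while in Ad-h-NR4A2 samples each value of Map3k8 was above each value of Map3k1.

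Of the 14 MAP3K genes, 6 passed, 2 higher and 4 lower, and Map3k8 and Map3k1 were the 2 differentially expressed. These shares, 42.9% and 14.3%, are near the 40.9% and 15.2% of all genes. Map3k10, or MLK2, rose slightly (log2 fold change 0.24, adjusted p = 0.0189). Map3k5, which encodes the redox-sensitive kinase ASK1 of the p38 and JNK branches, fell from 6.84 to 5.14 FPKM (log2 fold change -0.41, adjusted p = 0.00108), with no overlap between the groups. Map3k14, the NF-kappaB-inducing kinase NIK, fell as well (log2 fold change -0.37, adjusted p = 0.00909). Map3k12, or DLK, fell by the same amount, with a log2 fold change of -0.37 and a weaker adjusted p of 0.0329. This call was near the threshold and was lost when any of 6 samples was left out, with log2 fold changes of -0.37 to -0.28: the adjusted p was 0.0503 without Ad-GFP sample 24, 0.0588 without 25, 0.0630 without 28 and 0.0715 without 29, and 0.0607 and 0.0651 without Ad-h-NR4A2 samples 25 and 27. It was 0.0514 with no filter on low values. Over the alternatives it lay between 0.0189 and 0.0514, and with single samples left out between 0.022 and 0.0715.

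Map3k4 (NM_001107456, chr1:51043920-51129819), or MEKK4, which binds GADD45 proteins, was the most abundant MAP3K, with 23.9% of the tier's summed FPKM. Its level was 15.8 to 21.2 FPKM (median 18.5) with Ad-GFP and 16.1 to 20.2 FPKM (median 17.6) with Ad-h-NR4A2. These ranges coincided almost fully, and the log2 fold change was -0.06 (95% confidence interval -0.22 to 0.10, adjusted p = 0.572; exact permutation p = 0.461). Map3k2, or MEKK2, had a log2 fold change of -0.26 with an adjusted p of 0.0716. The block brought it to 0.0255, and the other alternatives reached up to 0.0987. Leaving out single samples gave 0.0411 (Ad-h-NR4A2 sample 24) to 0.15 (Ad-h-NR4A2 sample 25). Map3k7, the gene of TAK1, is listed at 2 loci that share 1 accession, at 0.224 and 0.166 FPKM at the better covered locus. Fragments may have been split or lost between such copies, so its level is uncertain. Transcripts listed at several loci in this way had a median mean level of 0 FPKM, against 1.57 FPKM for those at 1 locus. Map3k9 was close to 0, and Map3k3, Map3k6, Map3k11 and Map3k13 did not pass. Over the 18 kinases of all tiers that did not pass, log2 fold changes ran from -0.37 to 0.23 and their 95% confidence intervals from -0.86 to 0.54. With the replicate block 5 of these 18 passed, Map2k1, Map3k2, Map4k4, Mapk12 and Mapk9, which made 18 of 31 kinases beside 6509 of 10950 genes, again near the background.

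Among the MAP2Ks, 2 of the 6 tested passed, 1 higher and 1 lower, or 33.3% against 40.9% of all genes. Map2k4 (NM_001030023, chr10:51951707-52022942) encodes MKK4, which phosphorylates JNK and also p38. It was at 35.4 to 40.2 FPKM (median 39.5, from 662 to 1021 fragments) in Ad-GFP samples and at 48.3 to 67.2 FPKM (median 57.7, from 964 to 1475 fragments) in Ad-h-NR4A2 samples. All Ad-h-NR4A2 samples were above all Ad-GFP samples in FPKM. The mean rose from 38.8 ± 1.76 to 58.6 ± 7.41 FPKM (SD, n = 6), a log2 fold change of 0.59 (SE 0.07, 95% confidence interval 0.43 to 0.75, limma adjusted p = 3.26e-05; exact permutation p = 0.00216). The ratio of 1.51 lies just above the 1.5-fold limit. It was 1.49 on the TPM scale and without Ad-GFP sample 28, and 1.47 without Ad-h-NR4A2 sample 27 or 29, which ended the differential expression call each time while the adjusted p passed.

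Map2k7 encodes MKK7, which acts on JNK alone. It fell from 22.8 ± 1.20 to 20.6 ± 0.757 FPKM (SD, n = 6), a log2 fold change of -0.14 (limma adjusted p = 0.0239), and its groups did not overlap. The adjusted p was 0.0527 without Ad-GFP sample 29 and 0.0512 without Ad-h-NR4A2 sample 29. It ran from 0.0224 to 0.0527 with single samples left out, and from 0.0113 to 0.0295 over the alternatives. Both activators of JNK therefore moved, and they moved apart. The ratio of Map2k4 to Map2k7 in FPKM was 1.59 to 1.83 in Ad-GFP samples (mean 1.71 ± 0.0910) and 2.29 to 3.38 in Ad-h-NR4A2 samples (mean 2.85 ± 0.373, SD, n = 6). This ratio was not tested, and follows from the opposite changes of both genes.

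Map2k2 (NM_133283, chr7:11626348-11645695), which encodes MEK2 of the ERK branch, was the most abundant of the kinases described and made up 42.8% of the summed MAP2K level. It ranged from 91.7 to 107 FPKM (median 99.4) with Ad-GFP and from 92.4 to 107 FPKM (median 103) with Ad-h-NR4A2. The groups overlapped along their full length, with a log2 fold change of 0.04 (95% confidence interval -0.06 to 0.14, limma adjusted p = 0.570; exact permutation p = 0.437). Quantile normalization turned the direction, with -0.012. Map2k1 (NM_031643, chr8:68840456-69431616), which encodes MEK1, ranged from 52.7 to 59.5 FPKM (median 53.3) and from 55.1 to 61.9 FPKM (median 57.9). Ad-GFP sample 28 lay among the Ad-h-NR4A2 values and the other 5 Ad-GFP samples below them.

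The log2 fold change of Map2k1 was 0.10 (95% confidence interval 0.01 to 0.19), with an adjusted p of 0.0699 and an exact permutation p of 0.0260, and the Ad-h-NR4A2 sample was the higher one in 6 of 6 pairs. The replicate block gave an adjusted p of 0.00704, and the alternatives spanned 0.00704 to 0.202. It was 0.0164 without Ad-GFP sample 28 and 0.0455 without Ad-h-NR4A2 sample 24, and reached up to 0.136 with other single samples left out. Map2k6, which encodes the p38 kinase MKK6, had a log2 fold change of -0.32. Its adjusted p was 0.0834, and 0.0635 to 0.115 over the alternatives. With single samples left out it ran from 0.0316 (without Ad-GFP sample 24) to 0.171 (without Ad-GFP sample 25). Map2k5, the activator of ERK5, had 0.02 and an adjusted p of 0.878. Map2k3, the other p38 kinase, is listed at 2 loci with 1 accession, so its level is uncertain in the same way as that of Map3k7. At the better covered locus it did not exceed 0.169 FPKM in any sample. It was at 0 there in Ad-h-NR4A2 sample 28 and was not tested.

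**Figure D2:**
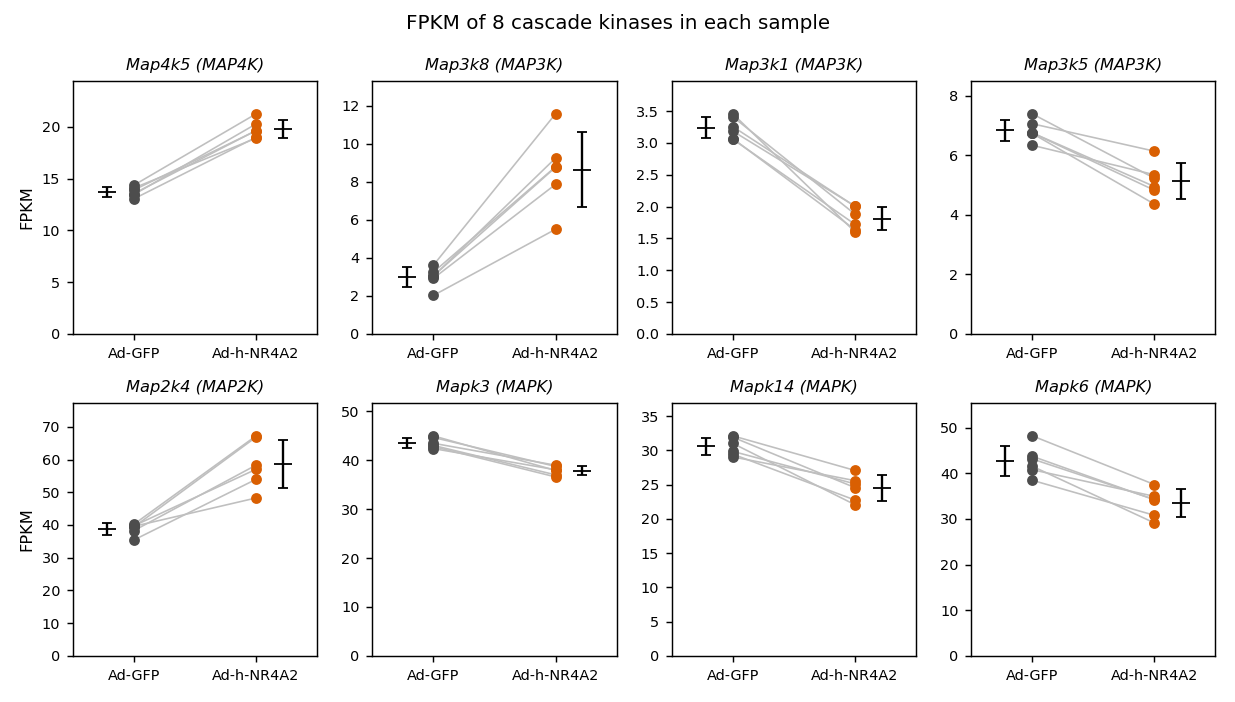
FPKM (y axis of each panel) of 8 cascade kinases in each Ad-GFP and Ad-h-NR4A2 sample. Points are samples, grey lines join samples with the same number, and bars give the mean ± SD (n = 6); in each of the panels the groups do not overlap, with Map4k5, Map3k8 and Map2k4 higher and Map3k1, Map3k5, Mapk3, Mapk14 and Mapk6 lower in Ad-h-NR4A2 samples.

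Of 6 MAPK genes tested, 3 passed, none higher and 3 lower, none of them 1.5-fold, and in the same 3 the groups did not overlap. Over all genes, 40.9% passed, 21.7% were lower and 21.5% did not overlap. In this fit without pairs, and with 6 genes, the share that passed is thus near the background. The median log2 fold change of the 6 was -0.26, and all 6 had negative values, also on the TPM scale (median -0.28) and after quantile normalization (median -0.27). These scales use the same samples and are not separate evidence. The median over all genes was below 0 too, at -0.02, and at -0.04 on both of the other scales. The share of all genes with negative values is not given here. The other 3, Mapk8, Mapk9 and Mapk12, did not pass. With the replicate block Mapk9 and Mapk12 passed as well, both lower, beside 6509 of 10950 genes (3539 lower).

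Mapk3 encodes ERK1, an effector of the growth factor branch. Mapk3 (NM_017347, chr1:205172641-205178842), the most abundant MAPK described with 26.4% of the tier's summed FPKM, was at 42.4 to 45.0 FPKM (median 43.2) in Ad-GFP samples and at 36.6 to 39.0 FPKM (median 38.0) in Ad-h-NR4A2 samples. The ranges were narrow and did not meet. The mean fell from 43.5 ± 1.05 to 37.9 ± 0.940 FPKM (SD, n = 6), a log2 fold change of -0.20 (SE 0.03, 95% confidence interval -0.27 to -0.13, limma adjusted p = 0.000328; exact permutation p = 0.00216).

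Mapk14 (NM_031020, chr20:7968539-8028708) encodes p38 alpha, the main p38 of cardiac myocytes. It was at 29 to 32.1 FPKM (median 30.4) in Ad-GFP samples and at 22.1 to 27.1 FPKM (median 24.8) in Ad-h-NR4A2 samples. All Ad-h-NR4A2 samples lay below all Ad-GFP samples. The mean fell from 30.6 ± 1.31 to 24.5 ± 1.85 FPKM (SD, n = 6), a log2 fold change of -0.32 (SE 0.05, 95% confidence interval -0.44 to -0.20, limma adjusted p = 0.000371; exact permutation p = 0.00216). Mapk12, the p38 gamma gene known from striated muscle, had 9.99 ± 2.32 and 7.73 ± 1.90 FPKM (SD, n = 6), with a log2 fold change of -0.37 and a wide 95% confidence interval of -0.72 to -0.01. Its adjusted p was 0.0895 and its exact permutation p 0.0823, although the Ad-h-NR4A2 sample was lower in 6 of 6 pairs. The replicate block gave an adjusted p of 0.000650, and the highest of the alternatives was 0.113. With single samples left out the adjusted p ran from 0.0174 (without Ad-h-NR4A2 sample 24) to 0.185 (without Ad-GFP sample 24). Mapk13, the p38 delta gene, is listed at 0 in all samples, and Mapk11, the p38 beta gene, did not exceed 0.0879 FPKM.

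The JNK genes were represented by Mapk8 and Mapk9, since Mapk10, the JNK form of neurons and heart, was close to 0. Mapk8 (NM_053829, chr16:11579504-11662858), which encodes JNK1, was at 12.7 to 15.1 FPKM (median 13.0) with Ad-GFP and at 12.2 to 13.5 FPKM (median 12.6) with Ad-h-NR4A2. The groups overlapped, and the log2 fold change was -0.06 (95% confidence interval -0.18 to 0.05, limma adjusted p = 0.392, exact permutation p = 0.177). The Ad-h-NR4A2 sample was lower in 6 of 6 pairs, and the replicate block gave an adjusted p of 0.175. Without Ad-GFP sample 27 the log2 fold change of Mapk8 was -0.024. Mapk9 (chr10:35105633-35146138), which encodes JNK2, is listed with 3 transcripts. The most abundant, NM_017322, was at 24.3 to 29.2 FPKM (median 27.2) with Ad-GFP and at 22.2 to 27 FPKM (median 24.7) with Ad-h-NR4A2. These overlapped as well (log2 fold change -0.14, limma adjusted p = 0.0903; exact permutation p = 0.0519).

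The second transcript of Mapk9, NM_001270545, was more clearly different. It was at 10.8 to 13.3 FPKM in Ad-GFP samples and at 6.80 to 10.3 FPKM in Ad-h-NR4A2 samples, with no overlap. Tested with every transcript by itself, it fell by 0.46 on the log2 scale (limma adjusted p = 0.00299). Its share of the summed FPKM of the gene was 28.3% ± 2.44 in Ad-GFP and 24.3% ± 3.36 in Ad-h-NR4A2 samples (SD, n = 6), a difference that was not tested. The split of fragments between transcripts of a gene was estimated by the authors' program. With the transcripts summed, Mapk9 as a gene had a log2 fold change of -0.24 and an adjusted p of 0.00188, so whether JNK2 mRNA is counted as lower depends on how transcripts are joined. For NM_017322 the adjusted p was 0.0442 with the replicate block and 0.0472 after quantile normalization. Over the alternatives that used this transcript it ranged from 0.0442 to 0.109. It was 0.0462 without Ad-GFP sample 26 and 0.0468 without Ad-h-NR4A2 sample 24. Leaving out other single samples gave up to 0.187 (Ad-h-NR4A2 sample 29).

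Of the atypical MAPKs ERK3 and ERK4, which lack the usual phosphorylation motif of their activation loop, Mapk6 was abundant. Mapk6 (NM_031622, chr8:81931184-81954196) encodes ERK3, a kinase with a short-lived protein. It was at 38.5 to 48.2 FPKM (median 42.3) in Ad-GFP samples and at 29.1 to 37.5 FPKM (median 34.2) in Ad-h-NR4A2 samples. The groups did not overlap, and the mean fell from 42.6 ± 3.30 to 33.5 ± 3.03 FPKM (SD, n = 6), a log2 fold change of -0.35 (SE 0.07, limma adjusted p = 0.000979; exact permutation p = 0.00216). Its mean level was thus close to that of Mapk3 in Ad-GFP samples. Mapk4, which encodes ERK4, was near the limit of detection, with 3 to 10 fragments in a sample of the Ad-GFP group and 0 to 4 in one of the Ad-h-NR4A2 group. Being at 0 in Ad-h-NR4A2 sample 28 alone, it was not tested across genes; its exact permutation p was 0.00866. With no filter on low values it had a log2 fold change of -0.53 (adjusted p = 0.0158). Without Ad-h-NR4A2 sample 28 it had -0.47 (adjusted p = 0.0428) and would count as differentially expressed. Mapk4 entered that fit only because its sample at 0 was left out, so the call is no support for a change. Mapk15 (ERK7/8) was close to 0 in all samples, and so were the values listed for Mapk7 (ERK5). Since Mapk7 is at 2 loci with 1 accession, its fragments may have been lost, and its level is uncertain.

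Summed over the genes of a tier, levels in Ad-h-NR4A2 samples were higher at the MAP2K and lower at the MAPK tier. The summed MAP2K level was 217 to 232 FPKM in Ad-GFP samples (mean 224 ± 6.04) and 235 to 259 FPKM in Ad-h-NR4A2 samples (mean 248 ± 9.89, SD, n = 6), and was higher in 6 of 6 pairs. Most of that difference was Map2k4, at 38.8 and 58.6 FPKM. The summed level of the 12 MAPKs was 163 to 171 FPKM (mean 167 ± 3.35) and 135 to 148 FPKM (mean 141 ± 4.90), and was lower in 6 of 6 pairs. Neither pair of ranges overlapped. The sums of MAP3Ks, 74.5 ± 1.13 and 77.3 ± 1.96 FPKM, and of MAP4Ks, 65.4 ± 3.58 and 66.8 ± 4.08 FPKM, differed less. Within the MAPK tier, the p38 genes summed to 40.6 ± 2.29 and 32.3 ± 2.47 FPKM and the JNK genes to 40.4 ± 2.57 and 37.4 ± 1.70 FPKM. These sums take the most abundant transcript of each gene; with all 6 JNK transcripts listed, the JNK sum was 54.9 ± 2.59 and 47.9 ± 2.32 FPKM, and that of all MAPK transcripts 182 ± 3.25 and 152 ± 5.42 FPKM. Each of these sums was lower in 6 of 6 pairs. The sums are descriptions without a test, and they speak of mRNA only, since the activity of a kinase is set by its phosphorylation.

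The 5 genes that match by name only are not kinases, and 3 of them passed, or 60% against 40.9% of all genes. Mapk1ip1l rose from 18.9 to 25.4 FPKM (log2 fold change 0.42, adjusted p = 0.000731). Mapk8ip1, the JNK scaffold JIP1, fell from 49.7 to 42.5 FPKM (log2 fold change -0.23, adjusted p = 0.00407). Mapk1ip1 rose by 0.20 on the log2 scale (adjusted p = 0.0363). The last call was lost on the TPM scale (adjusted p = 0.0908, the alternatives starting from 0.000688), and without Ad-GFP sample 25 (0.0734), 26 (0.0778) or 29 (0.0743) or Ad-h-NR4A2 sample 24 (0.0700), 25 (0.0535) or 27 (0.0754). Map3k7cl and the JNK scaffold gene Mapk8ip3 did not pass.

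Promoters were read from RefSeq sequences of build GRCr8, which held a window of 300 bases for 34 of the 38 kinases. The letters AAAGGTCA, the element to which NR4A receptors bind as monomers, were searched on both strands and occurred in 1.43% of 33469 promoter windows and in 0 of the 34 kinase windows. The shorter AGGTCA, which is contained in the longer element, occurred in 16.2% of all windows and in 4 kinase windows, those of Map3k12, Map3k6, Map4k1 and Mapk4. Absence says only that these letters are not in these windows. The windows of the differentially expressed Map3k8 and Map2k4 are shown for what they have in common, a high number of CG dinucleotides, which are in capitals. The window of Map3k8, chr17:58077925-58078224 on the + strand, held 26 CG and that of Map2k4, chr10:50946990-50947289 on the - strand, held 23, against a median of 7 over all windows. They start 250 and 226 bases before the annotated start of the gene.
Map3k8: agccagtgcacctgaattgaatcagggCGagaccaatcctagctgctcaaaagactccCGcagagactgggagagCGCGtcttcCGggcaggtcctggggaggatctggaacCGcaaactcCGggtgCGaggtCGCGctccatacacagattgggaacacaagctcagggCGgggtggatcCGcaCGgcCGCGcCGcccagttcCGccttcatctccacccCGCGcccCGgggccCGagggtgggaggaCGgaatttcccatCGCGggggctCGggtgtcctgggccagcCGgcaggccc
Map2k4: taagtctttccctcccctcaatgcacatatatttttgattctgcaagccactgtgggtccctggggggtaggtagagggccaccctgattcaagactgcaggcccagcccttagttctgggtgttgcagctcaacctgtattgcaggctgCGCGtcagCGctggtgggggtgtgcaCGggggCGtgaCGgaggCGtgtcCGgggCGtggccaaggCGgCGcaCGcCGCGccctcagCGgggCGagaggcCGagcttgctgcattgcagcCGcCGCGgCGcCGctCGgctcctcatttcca
Fewer CG dinucleotides than these were present in 84.8% and 80.5% of all windows, whose upper quartile was 19. Windows of the other kinases and of expressed genes were not compared. Whether the number of CG goes with the change of these genes was therefore not tested. The window given for Map3k1 lies inside the annotated gene and is not shown.

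Upstream of the cascade, 11 of the 17 RAS-RAF input genes tested passed, 3 higher and 8 lower. That is 64.7%, against 40.9% of all genes (19.3% higher and 21.7% lower). Of this list of 18 genes, 17 are listed, with 3 differentially expressed, or 17.6% against 15.2%, and a median log2 fold change of -0.12. Rap1b, a small GTPase that can signal through B-RAF, rose from 65.1 to 140 FPKM (log2 fold change 1.09, adjusted p = 1.80e-07). Mras, which forms a phosphatase complex acting on RAF, rose from 2.89 to 4.37 FPKM (log2 fold change 0.58, adjusted p = 0.000103). Rasa1, a GTPase-activating protein that switches RAS off, fell from 41.9 to 26.4 FPKM (log2 fold change -0.66, adjusted p = 1.63e-05). Other kinases of the STE20 and MAP3K type, 10 of which were tested, had 6 that passed, 2 higher and 4 lower, again beside 40.9% of all genes, and a median of 0.01. Among them Tnik, a relative of Map4k4, was differentially expressed, with 7.15 and 12.2 FPKM (log2 fold change 0.76, adjusted p = 9.64e-07).

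Scaffold and adaptor genes hold the kinases of a module together or link them to receptors. Of 19 tested, 10 passed, 4 higher and 6 lower, which is 52.6% against 40.9% of all genes, and 10.5% were differentially expressed against 15.2%. The median log2 fold change was -0.02; the list shares Mapk8ip1 and Mapk8ip3 with the genes above. The 2 that were differentially expressed moved in opposite directions. Traf6, a ubiquitin ligase that activates TAK1, rose from 5.30 to 8.76 FPKM (log2 fold change 0.70, adjusted p = 6.63e-05). Ksr1, the scaffold that brings RAF, MEK and ERK together, fell from 1.81 to 0.896 FPKM (log2 fold change -0.99, adjusted p = 0.0111).

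Downstream of the MAPKs, the kinases that they activate mostly passed the test. Of 11 tested, 9 passed, or 81.8%, 3 of them higher and 6 lower, and 5 were differentially expressed, or 45.5%, against the 40.9% and 15.2% of all genes. The median log2 fold change was -0.22. Rps6ka1, which encodes the ERK target RSK1, rose from 1.41 to 2.42 FPKM (log2 fold change 0.75, adjusted p = 0.00171). Rps6ka6, or RSK4, also rose but was near 0, at 0.0645 and 0.133 FPKM. Rps6ka5, which encodes the nuclear kinase MSK1 of the ERK and p38 branches, fell from 8.74 to 5.00 FPKM (log2 fold change -0.80, adjusted p = 1.02e-05). Mapkapk3, a p38 target, fell from 28.8 to 17.2 FPKM (log2 fold change -0.74, adjusted p = 1.49e-06). Mknk2, which encodes the kinase MNK2 of the translation factor eIF4E, fell from 189 to 111 FPKM (log2 fold change -0.77, adjusted p = 0.00293). The RSK genes moved in both directions, and so did the p38 targets. Of the other RSK genes, Rps6ka2 fell from 4.49 to 3.19 FPKM (log2 fold change -0.48, adjusted p = 4.16e-04) and Rps6ka3 from 23.8 to 20.4 FPKM (log2 fold change -0.22, adjusted p = 0.0136), and the p38 target Mapkapk2 rose from 194 to 231 FPKM (adjusted p = 0.0217). Mknk1, the second MNK gene, fell from 17.0 to 11.7 FPKM.

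Of the MAPK-regulated transcription factors, 21 were tested and 12 passed, 3 higher and 9 lower, or 57.1% against 40.9% of all genes. Differentially expressed were 7, or 33.3% against 15.2%, and the median log2 fold change was -0.17. With the replicate block 15 of the 21 passed, 4 higher and 11 lower, beside 6509 of 10950 genes. Fosl2, an AP-1 subunit, rose from 9.38 to 52.2 FPKM (log2 fold change 2.48, adjusted p = 2.87e-09), and Myc, a driver of growth genes, rose from 24.9 to 42.0 FPKM (log2 fold change 0.77, adjusted p = 0.000186). The largest falls were those of Ets2, from 22.9 to 10.7 FPKM (log2 fold change -1.10, adjusted p = 3.05e-06), and of Ddit3, the stress factor CHOP, from 208 to 108 FPKM (log2 fold change -0.99, adjusted p = 0.00649). The AP-1 subunits Fosl1 and Jund fell as well, by 0.86 (adjusted p = 0.0231) and 0.80 (adjusted p = 9.57e-05) on the log2 scale. The AP-1 genes named here therefore moved in both directions.

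Genes that ERK activity induces, among them feedback inhibitors, were found on both sides. All 17 of the list were tested and 8 passed, 5 higher and 3 lower, or 47.1%, near the 40.9% of all genes. Differentially expressed were 7, or 41.2% against 15.2%, and the median log2 fold change was 0.02. With the replicate block 10 of the 17 passed, 5 higher and 5 lower, beside 6509 of 10950 genes. Spry4 and Spred3 were added, both lower. Epha4, an ephrin receptor, rose from 0.368 to 2.01 FPKM (log2 fold change 2.19, adjusted p = 2.09e-07). Ier3, an early response gene, rose from 72.5 to 285 FPKM (log2 fold change 1.97, adjusted p = 2.58e-07). Spry1, a Sprouty inhibitor of RAS-ERK signalling, rose from 1.97 to 3.88 FPKM (log2 fold change 0.97, adjusted p = 0.000668), and Phlda1 rose from 54.8 to 92.4 FPKM (log2 fold change 0.78, adjusted p = 0.00679). Spred1, an inhibitor of the same pathway, fell from 3.92 to 1.86 FPKM (log2 fold change -1.04, adjusted p = 5.14e-06). The ETS factor Etv5 fell from 3.49 to 1.59 FPKM (log2 fold change -1.05, adjusted p = 0.00254), and the ephrin receptor Epha2 fell from 0.706 to 0.405 FPKM (log2 fold change -0.66, adjusted p = 0.0415). The pathway inhibitors Spry1 and Spred1 thus moved in opposite directions. Spry2 rose by 0.26 on the log2 scale (limma adjusted p = 0.0481). The rest of the list did not pass without the block: Spry4, Spred2, Spred3, Dusp4, Dusp5, Dusp6, Etv4, Egr1 and Ccnd1.

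Cell type markers were set beside these results. Cardiomyocyte markers were by far the most abundant, summing to 37412 to 46441 FPKM in Ad-GFP samples and 32777 to 41142 FPKM in Ad-h-NR4A2 samples, with Mb the most abundant at 19526 FPKM on average. The sum was lower in 6 of 6 pairs. Of 8 such markers 5 passed, all lower, or 62.5% against 40.9% of all genes (21.7% lower), and 3 were differentially expressed, or 37.5% against 15.2%, with Myh7 at 273 and 154 FPKM, Ryr2 at 85.7 and 53.4 FPKM and Pln at 1428 and 873 FPKM. Fibroblast markers summed to 18.7 ± 7.64 and 15.0 ± 7.34 FPKM (SD, n = 6), with Vim the most abundant at 11.8 FPKM, Col1a2 listed at 0 throughout, and 1 of 7 tested past the test, Col3a1, which fell from 3.64 to 1.78 FPKM. The fibroblast sum was lower in 5 of 6 pairs. With the replicate block, under which 6509 of 10950 genes passed, 6 of 8 cardiomyocyte and 3 of 7 fibroblast markers passed, all lower, with Tnni3, Col1a1 and Pdgfra in addition. Endothelial markers summed to 14.5 ± 6.46 and 13.0 ± 5.83 FPKM, led by Kdr at 4.02 FPKM, and none of 6 passed, against 1 with the replicate block, Kdr, which was lower. Smooth muscle markers summed to 11.1 ± 4.85 and 9.48 ± 3.82 FPKM, led by Acta2 at 4.48 FPKM, and Myh11 fell from 3.05 to 1.97 FPKM. The endothelial and smooth muscle sums were each lower in 5 of 6 pairs.

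Of markers of macrophages and other leukocytes, 2 of 4 tested passed, both higher, beside 40.9% of all genes (19.3% higher). Of 9 such markers 8 are listed, and their sum was 6.97 to 18.0 FPKM in Ad-GFP samples and 39.2 to 50.2 FPKM in Ad-h-NR4A2 samples. Most of that sum was Csf1r, which rose from 10.1 to 40.2 FPKM (log2 fold change 2.06, adjusted p = 2.15e-06). Cd14 rose from 0.222 to 1.19 FPKM (adjusted p = 0.000493). The others did not pass or were not tested. Lyz2, a lysozyme gene, was at 1.69 and 1.59 FPKM (log2 fold change -0.66, 95% confidence interval -2.12 to 0.81), Cd68 was at 0.463 and 0.482 FPKM (adjusted p = 0.905), and Ptprc, Cd163 and Itgam, which define leukocytes or macrophages, had group means of at most 0.0664 FPKM. Cd3e was at 0 in 11 samples. The part of other cell types in the levels of the cascade kinases was not tested.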

How the data were processed

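RNA of 12 ARVM samples, 6 of the Ad-GFP and 6 of the Ad-h-NR4A2 group, was sequenced by the authors as stranded mRNA libraries in 1 pooled paired-end run, aligned to Rn5 with STAR and quantified on RefSeq transcripts with Cufflinks. The FPKM deposited by the authors are fragment numbers divided by transcript length and sequencing depth; strand use in counting is not given in the sources used here. Of 225024 values, 225016 carry limits equal to the FPKM itself, which were therefore not used as errors, and 8 have a failed status.

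Of several transcripts of a gene, the one with the highest mean FPKM stood for it. The 10950 genes that were above 0 in every sample were tested with limma 3.58.1 in R 4.3.3, fitted to log2(FPKM + 0.1) with a trend and no block. These p-values were two-sided and adjusted by the Benjamini-Hochberg method. For single kinases, an exact permutation test (two-sided, 924 divisions into 6 and 6) was added. Other software was NumPy 2.4.6, pandas 2.3.3, SciPy 1.17.1 and Matplotlib 3.10.9 under Python 3.11.15. The fit was tested on simulated data. The depth was recovered from values of up to 6 fragments on transcripts of at least 800 nucleotides, of which 99.4% to 99.9% per sample were whole within 0.05. It covers counting error only.

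The sample numbers come from the labels, which do not say what they stand for. The paper describes the sequencing data as 6 independent experiments with ARVMs from different rats. Deviations from the group means of same-numbered samples correlated with 0.540, 0.511, 0.347, 0.453, 0.623 and 0.553 across genes, so the numbers were taken as pairs, and the replicate block was an alternative. The others were pseudocounts of 1 and 0.01, no filter, the TPM scale, a mean FPKM filter at 1, no trend and quantile normalization. Further ones were transcripts summed, names with a single transcript, every transcript by itself, and fold limits of 1.25 and 2. Each sample was also left out in turn, which is reported apart from these alternatives.

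Given with each group's lowest, median and highest sample were differentially expressed kinases, the ERK, MEK, p38 alpha and JNK genes, and the most abundant kinase of each tier; kinases described beyond this rule were chosen after their values were seen. Other kinases past the test were named with their fold change, and of each list up to 4 differentially expressed genes in each direction. Members and lists were chosen with earlier results of these data known. Of the 44 members, 1 is not reported here and enters no count, sum or figure of the kinases. RefSeq protein sequences were not used here.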

Additional observations from a re-analysis of the deposited data

Results flagged for a closer look

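In 4 of 72 groups of 6 samples examined, the lowest or highest sample lay apart from the other 5, its gap to the nearest of them, as a share of the whole range, being above Dixon's critical value; chance alone gives this in about 1 in 20 groups. For Map2k1 the gap of Ad-GFP sample 28 was 0.865 of the range, with 59.5 FPKM against a group median of 53.3. For Map4k1 the gap of the same sample was 0.728, with 0.404 FPKM against a median of 0.107. For Mapk8 the gap of Ad-GFP sample 27 was 0.749, with 15.1 FPKM against a median of 13.0. For Map2k2 the gap of Ad-h-NR4A2 sample 28 was 0.627, with 92.4 FPKM against a median of 103.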

How the results depend on the processing

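Of the 13 kinases past the test, 11 kept their direction and stayed past it under every alternative and with each sample left out; Map2k7 and Map3k12 did not. Of the 18 that did not pass, 6 passed under some alternative or with a sample left out (Map2k1, Map2k6, Map3k2, Map4k4, Mapk12 and Mapk9). The fold limit moved the number of differentially expressed genes most, to 803 at 2 and 2921 at the lower limit tried, and that of kinases to 1 and 8. With the replicate block, 6509 genes and 18 kinases passed (6 higher and 12 lower). It added Map2k1, Map3k2, Map4k4, Mapk12 and Mapk9 and changed no other call of a kinase. It lost no call of the pathway and marker lists. In the pathway lists it added Ptpn11, Taok1, Traf2, Elk3, Atf7, Junb, Spry4 and Spred3. Leaving out single samples gave 4025 to 4588 genes and 11 to 17 kinases past the test, and 1542 to 1769 genes and 2 to 4 kinases differentially expressed. The direction of Map2k2 turned to -0.012 after quantile normalization, and with single samples left out the log2 fold change ran from -0.013 to 0.10 for Map2k5, from -0.14 to 0.0069 for Map3k9 and from -0.072 to 0.0038 for Mapk8ip3; the cause was not tested. Genes of a few fragments, such as Map3k9 with 1 to 8 per sample, are limited by depth.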
